A study of Mus musculus with 4 samples.

Results

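The regions described are the called chromatin peaks whose midpoint lay within 100 kb of the transcription start of 19 genes that mark alveolar type 1 (AT1) cells. They numbered 421 of 116075 peaks in the control library and 437 of 125793 in the library labelled CKO, or 858 of 241868 over both peak lists. The genes were Ager, Hopx, Rtkn2, Aqp5, Pdpn, Cav1, Cav2, Clic5, Col4a3, Col4a4, Akap5, Emp2, Vegfa, Igfbp2, Spock2, Lmo7, Scnn1b, Sema3e and Lama3. GFP+ lung cells were sorted from male mice 8 days after bleomycin injury, nuclei were isolated, and RNA and open chromatin were read from the same nuclei. Control mice carried SftpcCreERT2, a tamoxifen-inducible Cre driven by the surfactant protein C promoter of AT2 cells, with the Rosa26mTmG reporter, which switches to GFP where Cre has acted. The CKO mice carried the same alleles plus IPF/F, a floxed allele that, by the series title, concerns the prostaglandin I2 receptor. Both groups were injured, so no uninjured lung enters any comparison. Each genotype gave 1 joint library, so no p-value could be computed, and a difference between libraries cannot be told apart from a difference between mice, sorts or preparations. The receptor gene, Ptgir, had 0 UMIs in control alveolar nuclei and 2 in those of the library labelled CKO, so its RNA could not check that label, and "the CKO library" below means the library labelled CKO. The number of mice behind each library is not given in the sources used here. Over all barcodes the files held 47307986 peak counts for the control library and 37365247 for the other.

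AT1 cells are the flat cells that cover most of the gas exchange surface. After injury AT2 cells, the cuboidal surfactant producers, can divide and turn into AT1 cells, passing through a transitional state marked by keratin and stress genes. Open chromatin around a gene holds its promoter and candidate regulatory elements, and it may open before, with or after the gene's RNA changes.

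Promoter sequences are shown for Lmo7, Clic5, Cav1 and Ager, and for Col4a4, whose start lies in the same peak as that of Col4a3. The first 4 were the genes whose start regions had the least negative lower interval end of the AT1-like over AT2-like ratio, taking the lower of the 2 libraries, among genes with a ratio above 0 in both. All their intervals held 0, so this order marks no difference. Pdpn had higher ratios, at 1.32 (-0.95 to 3.15) and 1.03 (-1.54 to 3.52) on the log2 scale, on 7 AT1-like counts in each library. The sequences come from RefSeq (GRCm38.p6), run 5′ to 3′ on the gene's strand, and cover 250 bases before to 50 bases after an annotated start. RefSeq windows were matched for 16 of the 19 genes, with 21 windows in all. Capitals mark a match to any of 7 motifs searched on both strands, which in these windows was always KLF, the GC-box-like CCNCNCCC.
Lmo7 window 1: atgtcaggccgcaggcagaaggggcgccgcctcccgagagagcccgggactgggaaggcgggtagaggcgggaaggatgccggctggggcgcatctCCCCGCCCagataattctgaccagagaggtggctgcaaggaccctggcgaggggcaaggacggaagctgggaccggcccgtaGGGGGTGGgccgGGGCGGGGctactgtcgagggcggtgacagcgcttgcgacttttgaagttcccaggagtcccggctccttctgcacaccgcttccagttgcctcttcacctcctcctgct
Lmo7 window 2: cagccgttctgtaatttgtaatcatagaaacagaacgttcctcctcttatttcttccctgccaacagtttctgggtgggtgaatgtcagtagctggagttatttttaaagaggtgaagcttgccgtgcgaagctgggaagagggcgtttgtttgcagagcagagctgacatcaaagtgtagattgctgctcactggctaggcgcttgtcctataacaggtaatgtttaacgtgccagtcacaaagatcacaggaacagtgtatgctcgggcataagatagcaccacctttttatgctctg
Clic5 window 1: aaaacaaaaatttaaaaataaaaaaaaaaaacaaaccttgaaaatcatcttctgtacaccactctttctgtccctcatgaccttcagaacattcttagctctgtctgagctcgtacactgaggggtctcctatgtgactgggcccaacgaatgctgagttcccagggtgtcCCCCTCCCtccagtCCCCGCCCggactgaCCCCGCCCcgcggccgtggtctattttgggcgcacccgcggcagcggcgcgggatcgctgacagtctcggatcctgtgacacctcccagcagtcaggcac
Cav1 window 1: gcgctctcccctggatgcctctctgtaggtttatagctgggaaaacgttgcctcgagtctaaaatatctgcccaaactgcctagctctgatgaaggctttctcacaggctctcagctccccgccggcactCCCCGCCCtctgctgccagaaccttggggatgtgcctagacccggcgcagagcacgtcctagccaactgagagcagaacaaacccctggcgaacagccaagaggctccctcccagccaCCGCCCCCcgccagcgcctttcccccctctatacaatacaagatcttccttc
Cav1 window 2: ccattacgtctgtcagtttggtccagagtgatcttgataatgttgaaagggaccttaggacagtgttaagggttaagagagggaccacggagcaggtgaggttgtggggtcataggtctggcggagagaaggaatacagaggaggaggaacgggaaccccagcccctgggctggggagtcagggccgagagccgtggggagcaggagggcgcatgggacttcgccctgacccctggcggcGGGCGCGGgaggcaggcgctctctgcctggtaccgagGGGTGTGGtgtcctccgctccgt
Ager window 1: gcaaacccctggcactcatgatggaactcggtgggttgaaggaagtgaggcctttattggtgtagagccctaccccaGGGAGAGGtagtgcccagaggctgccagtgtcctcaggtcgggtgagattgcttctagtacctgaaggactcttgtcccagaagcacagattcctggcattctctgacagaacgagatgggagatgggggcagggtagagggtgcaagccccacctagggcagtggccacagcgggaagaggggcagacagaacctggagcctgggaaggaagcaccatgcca
Col4a4 window 1: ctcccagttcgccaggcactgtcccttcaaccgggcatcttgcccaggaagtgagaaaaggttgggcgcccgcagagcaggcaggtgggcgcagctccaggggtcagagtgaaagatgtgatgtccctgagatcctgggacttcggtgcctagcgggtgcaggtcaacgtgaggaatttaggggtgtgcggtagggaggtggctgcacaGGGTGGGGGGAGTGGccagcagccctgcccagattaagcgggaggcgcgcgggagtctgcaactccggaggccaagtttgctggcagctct
The first Lmo7 window lies at chr14:101729678-101729977 (plus strand) and the second at chr14:101840373-101840672 (plus strand). Clic5 lies at chr17:44188322-44188621 (plus strand). The Cav1 windows lie at chr6:17306085-17306384 and chr6:17307390-17307689 (plus strand). Ager lies at chr17:34597600-34597899 (plus strand) and Col4a4 at chr1:82586800-82587099 (minus strand). Col4a3 had no matched window of its own. The first Lmo7 window was 67.7% G or C, against 46.0% for the second and a median of 52.7% over all 32851 RefSeq windows. The KLF letters stood in 17 of the 21 windows, or 81.0%, against 49.5% of all windows. The AP-1 letters TGANTCA stood in 2 of 21 windows (Cav2 and Igfbp2), or 9.52%, against 7.81% of all windows. TEAD (GGAATG) and GRHL (AACNNGTT) had no match in the 21 windows, against 14.7% and 4.2% of all windows. NKX2 (CACTTNA, in Hopx), FOXA (TGTTTAC, in Pdpn) and CEBP (TTGCNNAA, in Cav2) each matched 1 window, or 4.76%, against 11.5%, 3.65% and 10.8% of all windows. A match is a description of letters and no site of binding.

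Alveolar states were set from RNA alone, so the peak counts are a separate readout of the same nuclei. In the control library 1575 nuclei were AT2-like, 265 transitional-like and 186 AT1-like, and in the CKO library 1177, 626 and 503. The AT1-like cluster stood out for the 19 genes' summed RNA, at 8673 control and 9728 CKO UMIs per 1000000 UMIs, against 2857 and 3857 in AT2-like nuclei. Lmo7 alone made up 3589 and 4319 of the AT1-like sums. The RNA of these genes named the cluster, so its level is no result. On the same scale the cluster also held AT2 marker RNA at 4079 and 9053 and transitional marker RNA at 2811 and 3385, and its 10 leading genes held 1 AT1 marker, Ndnf, and 1 transitional marker, Itgb6. None of the 19 genes was among those 10, so its name rests on the mean log2 fold over the AT1 list, at 1.34. Transitional-like nuclei held transitional marker RNA at 2704 and 2554, below the AT1-like cluster in both libraries. The transitional list scored 0.56 in the transitional-like cluster and 0.85 in the AT1-like one. No transitional marker was among the 10 leading genes of the transitional-like cluster. AT2-like nuclei came mostly from 1 cluster in the CKO library (1113 nuclei, with 133 control nuclei) and from 2 others in the control library (765 and 677 nuclei). The 677 nuclei of the last had a median of 1162 UMIs, and its leading genes were AY036118, Gm48099 and Gm42418. The AT2 list scored 1.06 in the mainly CKO cluster, but only 0.15 and -0.10 in the 2 mainly control clusters. No AT2 marker was among the 10 leading genes of those 2. They were named AT2-like since the AT1 and transitional lists scored lower there. Markers of other cells were low in the 6 alveolar classes of both libraries, per 1000000 UMIs. T and NK markers summed to between 12.5 and 41.5 (1 to 10 of 14 genes at 0), macrophage and monocyte markers to between 44.4 and 132 (0 to 6 of 14 at 0), neutrophil markers to between 13.9 and 199 (0 to 8 of 10 at 0) and endothelial markers to between 12.5 and 44.7 (0 to 7 of 11 at 0). Their part in the peak counts was not tested. The libraries shared 193 barcode names. Kept nuclei numbered 2173 and 3883, with medians of 2705 and 3650 peak counts.

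The peaks around AT1 genes held nearly the same share of peak counts in all 3 alveolar states. In the control library their summed level was 3878 counts per 1000000 peak counts of the class (CPM) for AT2-like nuclei, 3772 for transitional-like nuclei and 4010 for AT1-like nuclei. The CKO levels were 3790, 3886 and 3995. The AT2-like clusters differed little among themselves, at 4001, 3857 and 3879 CPM for control nuclei and at 3793 and 3780 for the 2 CKO clusters with a value. AT1-like nuclei were thus 1.03-fold above AT2-like nuclei in the control library (log2 ratio 0.05, interval -0.02 to 0.12) and 1.05-fold above them in the CKO library (0.08, 0.03 to 0.12). Every interval given is an exact conditional binomial 95% interval for counting error only. Transitional-like over AT2-like gave log2 ratios of -0.04 (-0.11 to 0.03) and 0.04 (-0.01 to 0.08). A nucleus had a median of 11, 10 and 11.5 counts in these peaks in control AT2-like, transitional-like and AT1-like nuclei, and 14, 13 and 16 in those of the CKO library.

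Peaks chosen by the same rule around other marker genes place this small difference. Around 15 AT2 genes the level was lower in AT1-like than in AT2-like nuclei in both libraries, with log2 ratios of -0.29 (-0.36 to -0.22) and -0.24 (-0.28 to -0.19). Around 15 transitional genes it was higher, by 0.10 (0.03 to 0.16) and 0.12 (0.08 to 0.17). Around 14 T and NK cell genes the ratios were -0.06 (-0.16 to 0.04) and 0.02 (-0.05 to 0.09). The contrast these data reach between unlike cell types was itself modest at this width: in the CKO library, T and NK nuclei were 0.75 (0.68 to 0.82) above AT2-like nuclei on the log2 scale around T and NK genes, and 1.62 (1.49 to 1.76) above them within 25 kb. No peak of the reference windows was a member.

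**Figure D1:**
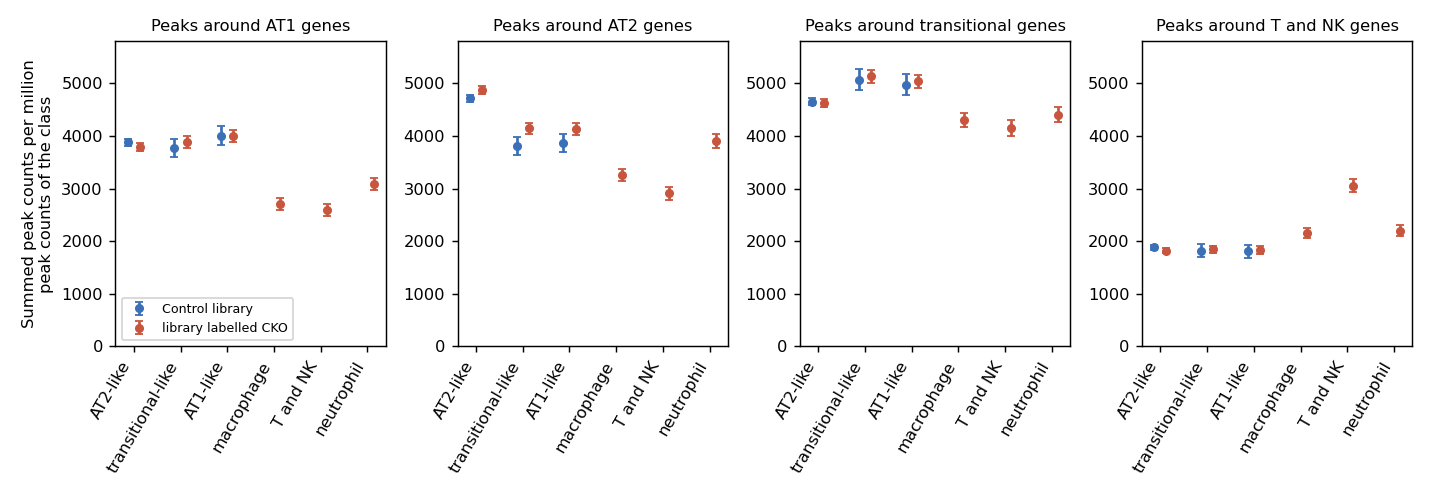
Summed peak counts per 1000000 peak counts (y axis) in each class of nuclei (x axis) for peaks within 100 kb of AT1, AT2, transitional and T and NK marker genes, with 95% Poisson intervals for counting error. Blue is the control library and red the CKO library, which alone held at least 100 nuclei of a leukocyte class. The AT1 panel is nearly flat over the 3 alveolar classes, the AT2 panel drops from AT2-like to the other 2, and leukocyte classes lie lower in the AT1 panel, as they also do in the AT2 panel.

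Summed within 25 kb of the starts the AT1-like excess was larger, but peaks under 1 kb did not have the largest ratio in either library. Distance ran to the interval of starts given for each gene, and a peak inside that interval had distance 0. At Lmo7 and Lama3 this interval ran over chr14:101729957-101840648 and chr18:12333819-12504199. Peaks deep inside Lmo7, such as chr14:101804868-101805705, thus count as close. Within 25 kb, 151 control peaks summed to 1597 CPM in AT2-like and 1821 in AT1-like nuclei, a log2 ratio of 0.19 (0.08 to 0.29). The 160 CKO peaks summed to 1484 and 1636, a log2 ratio of 0.14 (0.06 to 0.22). Around AT2 genes the 25 kb ratios were -0.49 (-0.61 to -0.38) and -0.39 (-0.46 to -0.31), and around transitional genes 0.26 (0.17 to 0.35) and 0.20 (0.14 to 0.27). Around T and NK genes the ratio was -0.03 (-0.28 to 0.21) in the control library but 0.21 (0.05 to 0.36) in the CKO library. An AT1-like excess of this size in that library was thus also present around genes of another cell type. Over distance, the 1 to 10 kb peaks had log2 ratios of 0.24 (0.05 to 0.43) and 0.19 (0.05 to 0.32). Peaks under 1 kb had 0.07 (-0.10 to 0.23) and 0.14 (0.01 to 0.26), and peaks at 10 to 50 kb 0.15 (0.03 to 0.26) and 0.05 (-0.03 to 0.13). At 50 to 100 kb the 2 libraries differed in sign, at -0.13 (-0.25 to -0.01) and 0.04 (-0.04 to 0.11). At the edge of the rule, peaks at 90 to 100 kb gave -0.40 and 0.05, and peaks at 100 to 110 kb, which are no members, -0.05 and 0.18.

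**Figure D2:**
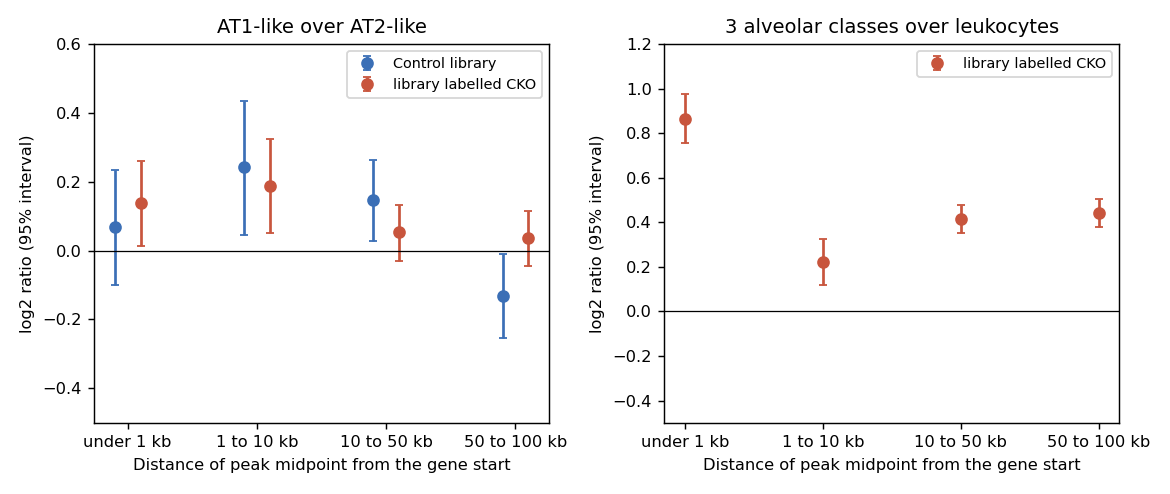
Log2 ratio of summed CPM (y axis) for member peaks binned by distance of the midpoint from the gene's interval of starts (x axis). Peaks inside that interval have distance 0, and bars are 95% intervals for counting error. The left panel gives AT1-like over AT2-like nuclei in the control library (blue) and the CKO library (red), where the 1 to 10 kb bin lies above 0 in both. The right panel gives the 3 alveolar classes together over leukocytes in the CKO library, where the ratio is largest under 1 kb.

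The members were mostly distal. Of the control peaks 50 lay inside a listed gene's interval of starts or under 1 kb from it. Another 41 lay at 1 to 10 kb, 174 at 10 to 50 kb and 156 at 50 to 100 kb. The CKO numbers were 52, 44, 172 and 169. By RefSeq gene extents 146 and 148 lay inside the listed gene, 147 and 152 inside another gene and 128 and 137 between genes. For 199 peaks in each library the nearest interval of starts in the files was that of a listed gene. Those peaks had AT1-like over AT2-like log2 ratios of 0.11 (0.00 to 0.21) and 0.11 (0.04 to 0.19), against 0.00 (-0.09 to 0.10) and 0.05 (-0.01 to 0.11) for peaks nearest to another gene. Median peak width was 878 and 881 bases, against 883 and 882 over all peaks. Peaks of the 2 libraries overlapped in 361 member regions, and 27 and 24 peaks lay in the windows of 2 listed genes.

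Single peaks held few counts, with a median of 40 in the control library and 81 in the CKO library over all kept nuclei. Of the members, 188 control peaks and 293 peaks of the CKO library had at least 50 counts. Among the 188, 20 were at least 2-fold higher in AT1-like than in AT2-like nuclei, or 10.6%, against 8.14% of all control peaks with that depth. Another 28 were at least 2-fold lower, or 14.9% against 18.4%. Among the 293, 37 were higher, or 12.6% against 13.3%, and 24 were lower, or 8.19% against 11.7%. These shares lie near the background, and 2-fold calls on single peaks do not set the members apart. Of the 112 shared member regions with at least 100 counts in each library, 1 was at least 2-fold higher in both libraries, against 0.814% of all such regions, and 3 were at least 2-fold lower, against 3.15%. Of these 112 regions, 3 had intervals above 0 in both libraries, against 1.2% of all, and 3 had intervals below 0, against 2.55%. Over all 361 shared member regions, 8 had intervals above 0 in both (1.63% of all 97973 shared regions did) and 3 below 0 (0.712% did).

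Surface and cytoskeletal genes come first. At Ager, which encodes the receptor RAGE, the 32 control peaks stood at 410, 442 and 416 CPM in AT2-like, transitional-like and AT1-like nuclei. The 33 peaks of the CKO library stood at 359, 380 and 409. The AT1-like over AT2-like log2 ratio was 0.02 (-0.20 to 0.24) and 0.19 (0.03 to 0.34). The Ager start region itself (chr17:34597407-34598219) was lower in transitional-like than in AT2-like nuclei in both libraries, by -1.63 (-3.95 to -0.02) and -1.14 (-2.41 to -0.06), on 6 and 17 transitional-like counts. At Hopx, a homeodomain-only cofactor, the locus ratios were -0.06 (-0.33 to 0.20) and -0.03 (-0.21 to 0.15), while within 25 kb they were 0.47 (0.06 to 0.86) and 0.35 (0.06 to 0.63), with both intervals above 0. At Pdpn, which encodes podoplanin, they were 0.23 (-0.24 to 0.67) and 0.09 (-0.23 to 0.40). Lmo7, an actin and junction-associated protein, stood at 416, 439 and 429 in the control library and at 363, 473 and 399 in the CKO library. Its transitional-like excess of 0.38 (0.24 to 0.53) there was 0.08 (-0.13 to 0.28) in the control library. Akap5, a kinase anchoring protein, gave AT1-like ratios of 0.05 (-0.19 to 0.28) and 0.13 (-0.03 to 0.29).

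The Rtkn2 window held regions of opposite sign, as did the windows of the other listed genes. Of its 16 shared regions 5 were above 0 in both libraries for AT1-like over AT2-like nuclei and 4 below. Among all shared regions 27.9% were above and 30.9% below, so opposite regions do not set Rtkn2 apart. The locus ratio was 0.09 (-0.29 to 0.46) in the control library and 0.12 (-0.14 to 0.38) in the CKO library. A region at chr10:68057599-68058519, inside Rtkn2 and 78.3 kb from its start, held 28.0, 8.07 and 1.10 CPM (for shared regions, per 1000000 counts in shared regions) in control AT2-like, transitional-like and AT1-like nuclei. CKO nuclei held 40.3, 15.05 and 17.2. It was highest in AT2-like nuclei in both libraries, with AT1-like log2 ratios of -4.67 (-14.68 to -1.42), on 1 AT1-like count, and -1.23 (-1.98 to -0.55). Without this peak the Rtkn2 ratios were 0.40 (0.01 to 0.78) and 0.45 (0.17 to 0.74). The peak was chosen from these same values, so its removal had to raise the ratios and shows no excess at the locus. A second region inside the gene, chr10:68008057-68008958, went the other way, at 1.86 (0.26 to 3.30) and 1.59 (0.32 to 2.91), on 13 and 27 AT1-like counts.

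At 2 of the 3 genes of ion and water transport, Aqp5 and Scnn1b, transitional-like nuclei were lowest in both libraries. Aqp5, a water channel, stood at 373, 252 and 341 CPM in control nuclei of the AT2-like, transitional-like and AT1-like classes. CKO nuclei stood at 417, 352 and 394. The transitional-like level was the lowest in both libraries, with log2 ratios to AT2-like of -0.57 (-0.84 to -0.31) and -0.25 (-0.40 to -0.09). Of the 33 shared regions of the Aqp5 window 22, or 66.7%, were below 0 in both libraries in that contrast, against 34.2% of all 97973 shared regions, and 4, or 12.1%, above, against 27.3%. Scnn1b, a subunit of the epithelial sodium channel, stood at 196, 154 and 205 and at 202, 167 and 208. Its transitional-like ratios were -0.35 (-0.71 to -0.01) and -0.27 (-0.50 to -0.05). AT1-like and AT2-like nuclei did not separate at either gene. The AT1-like ratios were -0.13 (-0.38 to 0.10) and -0.08 (-0.24 to 0.07) at Aqp5, and 0.06 (-0.26 to 0.37) and 0.04 (-0.17 to 0.25) at Scnn1b. Clic5, a chloride intracellular channel protein, gave AT1-like ratios of 0.02 (-0.24 to 0.28) and 0.16 (-0.02 to 0.34) and transitional-like ratios of -0.03 (-0.29 to 0.22) and -0.01 (-0.19 to 0.17), and its states did not separate. A region inside Clic5, chr17:44202731-44203655, was higher in AT1-like nuclei in both libraries, at 2.17 (0.85 to 3.41) and 1.91 (0.47 to 3.44), on 19 and 24 AT1-like counts.

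Among the caveolar and membrane genes, AT1-like ratios were above 0 in both libraries, and both intervals excluded 0 at Emp2 alone. Emp2, a tetraspan epithelial membrane protein, stood at 343, 364 and 420 CPM in control nuclei, and at 337, 379 and 377 in CKO nuclei. Its AT1-like ratios of 0.29 (0.07 to 0.51) and 0.16 (0.0006 to 0.32) both had intervals above 0, the latter barely. Leaving out its largest contributor in each library brought them to 0.11 (-0.14 to 0.34) and 0.08 (-0.09 to 0.24), so that the intervals then held 0. The 2 libraries differed in that peak. In the control library it was chr16:10337247-10338088, whose shared region gave 2.05 (1.39 to 2.69) there but 0.29 (-0.42 to 0.97) in the CKO library. In the CKO library the peak lay in chr16:10351103-10351932, 37.5 kb from the start and inside another gene. This region held 16.2, 12.1 and 36.2 CPM in control nuclei, and 16.6, 20.8 and 39.3 in CKO nuclei. AT1-like nuclei were highest in both, at 1.16 (0.27 to 1.97) and 1.24 (0.63 to 1.85), and of the 112 deeper regions it is the 1 at least 2-fold higher in both libraries. Cav1 and Cav2, the caveolins, lie side by side, and their windows overlap. The Cav2 locus ratios were 0.17 (-0.21 to 0.54) and 0.29 (0.02 to 0.56), while its start region (chr6:17280815-17281663) was lower in AT1-like nuclei, at -0.80 (-1.604 to -0.09) and -0.43 (-0.97 to 0.09). Without that start peak, the largest contributor in the control library, the control Cav2 ratio was 0.73 (0.27 to 1.17). As the peak was lower in AT1-like nuclei, leaving it out had to raise the ratio. Without the largest contributor in the CKO library, chr6:17211071-17211985, the CKO ratio was 0.05 (-0.27 to 0.37), so that its interval held 0. Within 25 kb both ratios were below 0, at -0.81 (-1.61 to -0.10) and -0.23 (-0.69 to 0.21). The control value was that of the start peak's 34 AT1-like and 464 AT2-like counts alone, so it is no separate result. An upstream region at chr6:17224570-17225521 had 6 AT2-like and 10 AT1-like counts in control nuclei, and 12 and 25 in CKO nuclei, with AT1-like ratios of 3.71 (1.35 to 6.39) and 2.29 (0.78 to 3.98).

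No matrix gene had intervals on 1 side of 0 in both libraries. Col4a3 and Col4a4, the basement membrane collagens, are read outward from 1 shared start region (chr1:82586528-82587397), and their windows held the same peaks. The locus ratio was 0.11 (-0.32 to 0.52) and 0.14 (-0.18 to 0.45), and the shared start region gave -0.88 (-2.12 to 0.15) and -0.49 (-1.25 to 0.21). Lama3, a laminin chain, gave 0.08 (-0.23 to 0.37) and 0.20 (-0.00 to 0.39). A region inside it, chr18:12502660-12503525, had 2 AT2-like against 5 AT1-like counts in the control library and 3 against 12 in the CKO library. These are ratios of 4.29 (0.41 to 10.08) and 3.23 (0.53 to 7.29) on very few fragments. Spock2, a proteoglycan of the matrix, had the fewest counts and opposite signs, at 0.68 (0.05 to 1.27) in the control library and -0.46 (-0.94 to -0.01) in the CKO library. It had no shared region over its start, while the other 18 genes had at least 1.

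Of the secreted signals, Sema3e was higher and Vegfa lower in AT1-like than in AT2-like nuclei in both libraries. Sema3e, a semaphorin, stood at 78.0 CPM in control AT2-like nuclei and at 129 and 124 in the transitional-like and AT1-like ones. The CKO values were 64.2, 114 and 95.2. Both other states were above AT2-like nuclei in both libraries. The AT1-like ratio was 0.67 (0.24 to 1.08) and 0.57 (0.23 to 0.90), and the transitional-like ratio 0.73 (0.32 to 1.12) and 0.83 (0.51 to 1.14). Of its 15 shared regions 7, or 46.7%, were above 0 in both libraries for AT1-like nuclei, against 27.9% of all shared regions, and 1, or 6.67%, below, against 30.9%. Without its largest contributor in each library the ratio was 0.45 (-0.05 to 0.92) and 0.61 (0.19 to 1.02), and with nuclei thinned to 1000 peak counts it was 0.03 (-1.20 to 1.06) and 0.27 (-0.50 to 1.00). A peak inside the gene and 5.69 kb from its start, chr5:14030540-14031396, held 4 AT2-like, 24 transitional-like and 23 AT1-like counts in the CKO library, and the overlapping control peak 14, 6 and 4. Its CKO ratio of 3.74 (1.56 to 6.95) was 1.16 (-2.14 to 3.55) in the control library.

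Vegfa, the endothelial growth factor that AT1 cells make, was lower in both other states. Control nuclei stood at 314 CPM when AT2-like, 231 when transitional-like and 258 when AT1-like, and those of the CKO library at 364, 293 and 307. The AT1-like ratios were -0.29 (-0.57 to -0.02) and -0.24 (-0.42 to -0.08), and the transitional-like ratios -0.44 (-0.73 to -0.17) and -0.32 (-0.49 to -0.15). Without its largest contributor in each library the AT1-like ratios were -0.21 (-0.50 to 0.07) and -0.20 (-0.37 to -0.02). Of 31 shared regions 16, or 51.6%, were below 0 in both libraries for AT1-like nuclei, against 30.9% of all shared regions, and 6, or 19.4%, above, against 27.9%. Its 2 start regions together gave -0.89 (-1.87 to -0.05) and -0.68 (-1.19 to -0.20). A region 41.6 kb from the start, chr17:46073565-46074450, gave -1.43 (-3.08 to -0.16) and -0.87 (-1.63 to -0.17). Another, chr17:45957908-45958792, had 107 counts in control AT2-like nuclei and none in AT1-like ones. The upper end of its control log2 interval was -0.84. Set against a floor of 3 counts it was 4.55-fold lower, which is no lower bound of the difference. Its CKO ratio was -0.91 (-1.93 to -0.01). Igfbp2, a binding protein of insulin-like growth factors, gave -0.19 (-0.76 to 0.33) and 0.01 (-0.39 to 0.39).

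Over the 19 loci, the median AT1-like over AT2-like log2 ratio was 0.07 in the control library and 0.14 in the CKO library, and none reached 2-fold. The ratio was above 0 in both libraries at 14 loci and below 0 in both at 3. Intervals lay above 0 in both libraries at Sema3e and Emp2 and below 0 in both at Vegfa. At each of these 3 loci 1 or both intervals held 0 once the largest contributor was left out. Those peaks were chosen from these same values, so leaving them out is a description and no test. Some intervals held 0 under other settings too. Of the 10 other settings in the control library the interval held 0 in 3 for Sema3e, 3 for Emp2 and 6 for Vegfa, and of the 11 in the CKO library in 1, 3 and 1. For transitional-like over AT2-like nuclei, 8 loci were above 0 and 8 below 0 in both libraries, with intervals above 0 in both at Sema3e and below 0 in both at Vegfa, Aqp5 and Scnn1b. Both contrasts share the AT2-like nuclei, and Col4a3 with Col4a4 and Cav1 with Cav2 share peaks.

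**Figure D3:**
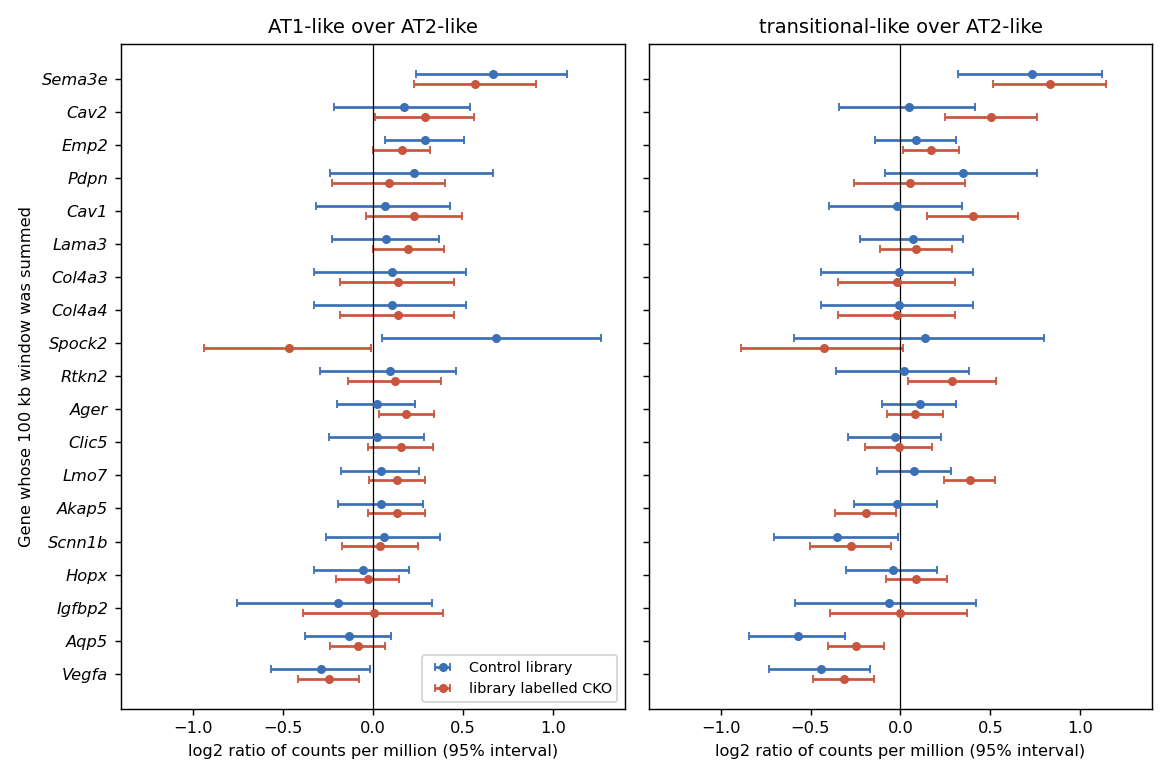
Log2 ratio of summed peak CPM (x axis) for the 100 kb window of each of the 19 genes (y axis), for AT1-like over AT2-like nuclei (left) and transitional-like over AT2-like nuclei (right), with 95% intervals for counting error. Blue is the control library and red the CKO library. Sema3e lies above 0 and Vegfa below 0 with all 4 intervals, Aqp5 and Scnn1b are below 0 on the right, and Spock2 has opposite signs on the left.

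The RNA of the same genes differed far more, as it had to, since it named the classes. The median RNA log2 ratio of AT1-like over AT2-like nuclei was 1.88 in the control library and 1.56 in the CKO library, against 0.07 and 0.14 for the peaks. Sema3e had RNA ratios of 4.23 and 3.34, and peak ratios of 0.67 and 0.57. Rtkn2 had RNA ratios of 4.26 and 2.48, and peak ratios of 0.09 and 0.12. Hopx had 2.37 and 1.596 in RNA, and -0.06 and -0.03 in peaks. Vegfa went in opposite directions, with RNA ratios of 1.00 and 0.95. Lmo7, with the most UMIs of the list, had 1.36 and 1.30 in RNA and 0.04 and 0.14 in peaks. Igfbp2 and Spock2 had between 1 and 43 UMIs a class, so their RNA ratios carry little. Across the 19 genes, which share libraries and depth, Pearson's r of RNA and peak ratios was -0.19 in the control library and 0.63 in the CKO library, and Spearman's coefficient 0.13 and 0.58. These are descriptions, and the control RNA ratio of Spock2 rests on 1 AT1-like UMI.

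**Figure D4:**
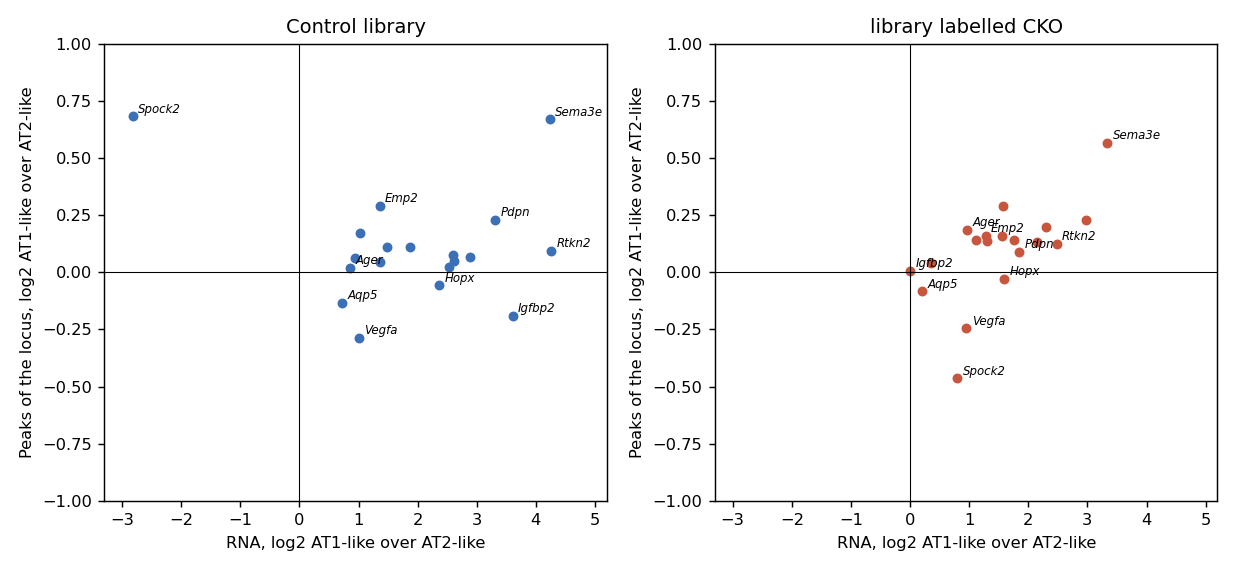
Log2 ratio of AT1-like over AT2-like nuclei for each of the 19 genes, as UMI share (x axis) and as summed peak counts of its 100 kb window (y axis), in the control library (left) and the CKO library (right), with 10 genes named. The RNA ratios reach 4.26 while the peak ratios stay between -0.46 and 0.68, and Spock2 rests on 1 RNA count in the control AT1-like nuclei.

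Between libraries, the shared member regions differed little within a state. In AT2-like nuclei they stood at 3903 CPM (per 1000000 counts in shared regions) in the control library and 3816 in the CKO library, a log2 ratio of the latter over the former of -0.03 (-0.07 to 0.00). In transitional-like nuclei they stood at 3805 and 3912, or 0.04 (-0.04 to 0.12), and in AT1-like nuclei at 4031 and 4030, or -0.00 (-0.08 to 0.08). The median of the single-region ratios over all 97973 shared regions was -0.10, -0.05 and -0.04 in these states. It is another measure than the summed ratios, whose value over all shared regions is fixed by the scaling. The direction depended on the scaling and on the window. Relative to counts in peaks within 1 kb of any gene start the 3 ratios were 0.13, 0.18 and 0.11. With the scaling unchanged, regions within 25 kb of the listed starts gave -0.12, -0.01 and -0.15. The peaks covered 311.8 kb of these regions in the control list and 312.1 kb in the other. By locus the AT2-like ratio ran from -0.28 at Igfbp2 to 0.61 at Spock2, with 3 intervals above 0 (Spock2, Vegfa and Aqp5) and 6 below 0 (Ager, Cav1, Cav2, Clic5, Igfbp2 and Lmo7). In transitional-like nuclei 2 intervals lay above 0, Aqp5 at 0.51 (0.23 to 0.81) and Vegfa at 0.33 (0.03 to 0.64). In AT1-like nuclei none of the 19 intervals excluded 0. No locus had an interval on 1 side of 0 in all 3 states.

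Among the 112 deeper shared member regions, 1 was at least 2-fold higher in the CKO library in AT2-like nuclei, against 0.32% of all 23451 such regions, and 5 were at least 2-fold lower, against 1.54%. In transitional-like nuclei 10 were higher (background 8.08%) and 7 lower (4.88%), and in AT1-like nuclei 9 were higher (8.52%) and 6 lower (4.98%). The highest in AT2-like nuclei was chr15:99596014-99596964 between the starts of Aqp5 and Aqp6, with 13.2 control and 27.2 CKO CPM (log2 ratio 1.05, 0.51 to 1.604). The lowest was chr17:34589453-34590356, with 20.3 and 4.89 (-2.05, -2.99 to -1.22). It lay 98.5 bases from the start of another gene, Gpsm3, and 7.95 kb from that of Ager. In the CKO library its alveolar over leukocyte ratio was -1.93 (-2.66 to -1.22). That region was also low in transitional-like nuclei, at -3.09 (-5.16 to -1.39). A region near Zfp365 in the Rtkn2 window, chr10:67912133-67913045, was lower in AT2-like nuclei at -1.50 (-2.34 to -0.73) and in transitional-like nuclei at -1.22 (-2.14 to -0.29). In AT1-like nuclei the regions that ranked lowest by their interval were chr16:10337247-10338162 near Emp2 at -1.61 (-2.39 to -0.84), chr14:101804868-101805705 inside Lmo7 at -1.30 (-2.02 to -0.57) and the Scnn1b start region at -1.68 (-2.86 to -0.52). The highest there included the Rtkn2 region at chr10:68057599-68058519, at 3.97 (0.60 to 14.01) on 1 control count. Depth and cluster makeup differed between these libraries, and their part in these values cannot be told apart from genotype.

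**Figure D5:**
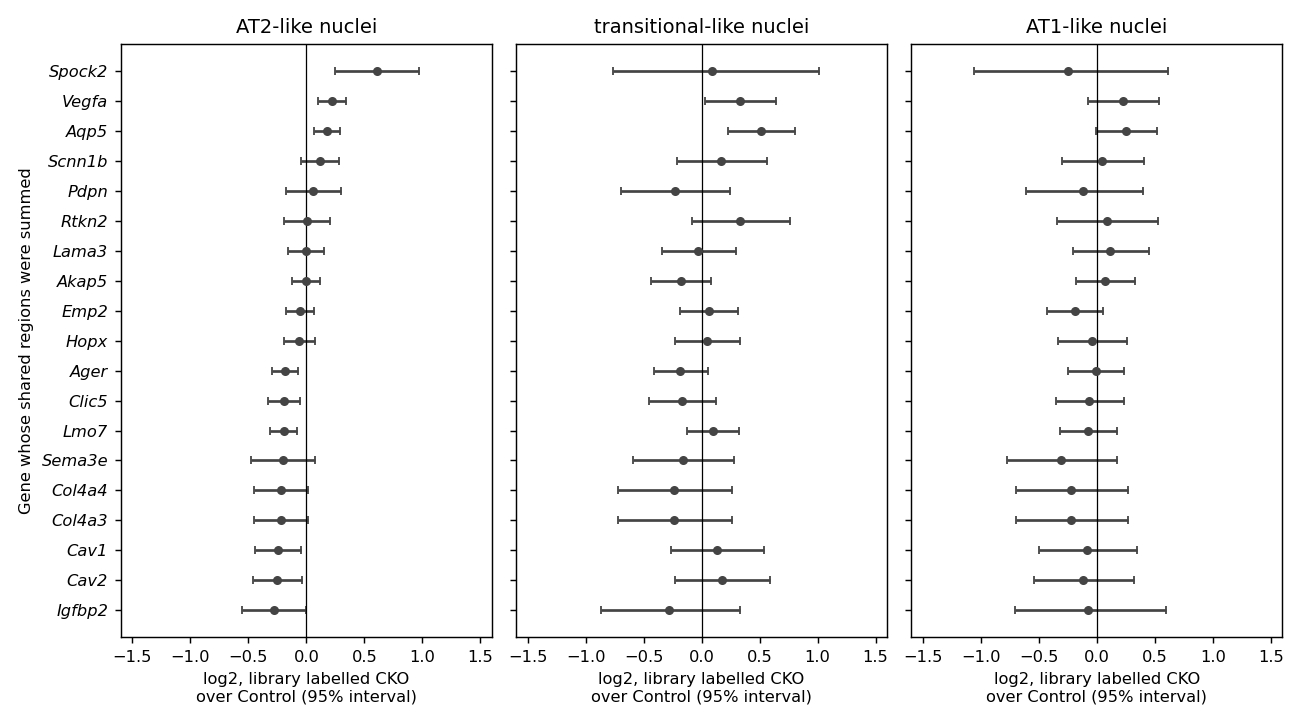
Log2 ratio of the CKO library over the control library (x axis) for the summed shared regions of each of the 19 genes (y axis) in AT2-like, transitional-like and AT1-like nuclei, with 95% intervals for counting error. Most intervals span 0, those of AT1-like nuclei all do, and Spock2 lies highest in AT2-like nuclei at 0.61.

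Alveolar nuclei had a higher level than leukocytes in the members, and also around AT2 genes. In the CKO library the level was 3860 CPM over the 3 alveolar classes and 2806 over macrophages, T and NK cells and neutrophils together, a log2 ratio of 0.46 (0.42 to 0.50). The same contrast was 0.42 (0.39 to 0.46) around AT2 genes, 0.17 (0.14 to 0.20) around transitional genes and -0.41 (-0.46 to -0.37) around T and NK genes. Macrophage and monocyte nuclei stood at 2707, T and NK nuclei at 2589, neutrophils at 3084 and endothelial nuclei at 3089. Of the 293 deeper members 130 were at least 2-fold higher in alveolar nuclei, or 44.4%, against 31.6% of all peaks with that depth, and 21 were at least 2-fold lower, or 7.17% against 14.0%. By distance the ratio was 0.87 (0.76 to 0.97) under 1 kb, 0.22 (0.12 to 0.32) at 1 to 10 kb, 0.41 (0.35 to 0.48) at 10 to 50 kb and 0.44 (0.38 to 0.51) at 50 to 100 kb. Peaks nearest to a listed start gave 0.86 (0.79 to 0.92), and those nearest to another gene 0.22 (0.17 to 0.27).

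By locus, 17 of 19 alveolar over leukocyte ratios were above 0. The highest were Igfbp2 at 1.49 (1.09 to 1.91), Sema3e at 1.39 (1.05 to 1.74) and Scnn1b at 1.29 (1.07 to 1.51). Ager at -0.54 (-0.64 to -0.45) and Pdpn at -0.73 (-0.92 to -0.54) were lower in alveolar nuclei. The Ager start region alone went the other way, at 1.25 (0.40 to 2.21). Over all members, peaks within 1 kb of another gene's start gave -0.17 (-0.24 to -0.10) and the others 0.70 (0.65 to 0.74). The region that ranked first by the lower end of its interval was chr17:45969261-45970140, 61.6 kb from Vegfa, at 2.55 (1.41 to 3.97). Next came the inner Lmo7 start region, chr14:101839844-101840750, at 1.98 (1.37 to 2.67), which holds the second Lmo7 window printed above without a match to any motif searched. A pair of regions 36.1 and 40.0 kb from Hopx gave 1.73 (1.18 to 2.32) and 1.69 (1.21 to 2.20). The latter, chr5:77154709-77155535, was lower in AT1-like than in AT2-like nuclei, at -0.61 (-1.39 to 0.09) and -0.55 (-1.04 to -0.09). Another region of that window, chr5:77130051-77130935, was higher in AT1-like nuclei in both libraries, at 0.94 (0.16 to 1.65) and 1.29 (0.57 to 2.02). The inner Lmo7 region chr14:101804868-101805705 held 19.6, 62.5 and 72.4 CPM in control AT2-like, transitional-like and AT1-like nuclei and 18.3, 50.2 and 29.4 in the CKO library. It was above AT2-like nuclei in both other states of both libraries, with AT1-like ratios of 1.89 (1.24 to 2.50) and 0.68 (0.03 to 1.32).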

How the data were processed

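The deposited matrices hold raw counts for each nucleus (UMIs of genes, cut sites in peaks), made with Cell Ranger ARC 2.0.1 per the file headers, and the authors called peaks separately for each library. The submitters' processing notes also name Seurat 4.1.0 and Signac 1.6.0 and the builds GRCm38 and GRCm39. Gene starts in the files match GRCm38, so coordinates are in that build, counted from 1. A nucleus was kept if its UMIs lay between 500 and 25000, its peak counts between 1000 and 100000, its genes numbered at least 300 and mitochondrial UMIs were under 20%. Scrublet (scanpy 1.11.5) removed 12 control nuclei and 0 others, so doublets were in effect not removed. Leiden clustering (leidenalg 0.10.2, resolution 0.6, 2000 variable genes, 30 components) used both libraries together. Clusters were named from marker lists by rules adjusted after the clusters, but not peak counts by state, had been seen: a score of at least 1.5 for other cell types, and a margin of 0.2 between AT1, AT2 and transitional lists. The 19 genes belong to the AT1 list, and a setting without them was tried. Peak distance is from the midpoint to the interval of starts the files give, and is 0 inside it.

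Levels are summed counts scaled to 1000000 peak counts of the class. Most peak values are even (81.6% and 84.6%), since 1 fragment gives 2 counts, so intervals use counts halved, which was decided after seeing the values. Where libraries were compared, levels are scaled to counts in regions shared by both peak lists. The interval was tested on simulated data for AT1-like over AT2-like: it held the true ratio for 97.0% of 200 changed peaks among 24004 control peaks and 97.0% among 41857 of the CKO library. The simulation drew independent fragments of 2 counts each, as the interval assumes. It checks the calculation only and says nothing of spread between nuclei or mice. Regions named are the 8 highest and 4 lowest for AT1-like over AT2-like and the 3 highest and lowest between libraries, of shared regions with at least 100 counts in each library, of which the text gives part. Regions with fewer counts, those of the alveolar over leukocyte comparison and the regions picked out within a locus were chosen after their values were seen. The members and lists were chosen with earlier results of these data known.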

Additional observations from a re-analysis of the deposited data

Results flagged for a closer look

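The peaks around Spock2 moved in opposite directions in the 2 libraries. AT1-like over AT2-like nuclei gave a log2 ratio of 0.68 in the control library, where 58 AT1-like counts lay in 11 peaks, and of -0.46 in the CKO library, where 106 lay in 15 peaks. The intervals were 0.05 to 1.27 and -0.94 to -0.01. Without the largest contributor in each library, chosen from these same values, the ratios were 0.54 (-0.17 to 1.19) and -0.21 (-0.71 to 0.27). Within 25 kb they were 1.62 (0.69 to 2.49) and -0.41 (-1.95 to 0.92). The difference between libraries was not tested, since each genotype has 1 library.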

How the results depend on the processing

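Of the main comparisons' values under other settings, 104 stayed within the interval of the reported value, or within 1.5 times for a count, and 38 moved. Within 25 kb the AT1-like ratios were 0.19 and 0.14 and the transitional-like ratios 0.047 and 0.16 (control, then CKO), and the CKO median over loci was 0.14. Counts of 2-fold single peaks depended most on the setting. They are given as those higher and those lower in AT1-like nuclei, with the share of all peaks in brackets. Within 25 kb they were 10 (8.14%) and 7 (18.4%) of 82 control peaks and 15 (13.3%) and 4 (11.7%) of 113 CKO peaks. As fragments they were 6 (3.75%) and 14 (13.3%) of 123, and 16 (7.73%) and 12 (7.56%) of 197. With nuclei thinned to 1000 counts they were 3 (3.73%) and 10 (16.5%) of 44, and 6 (5.42%) and 7 (8.26%) of 68. With a minimum of 100 counts they were 6 (3.33%) and 11 (13.3%) of 113, and 15 (7.18%) and 11 (7.27%) of 185. With no minimum they were 85 (20.9%) and 113 (34.3%) of 420, and 80 (20.6%) and 58 (17.4%) of 430. At 1.5-fold they were 37 (16.8%) and 50 (29.2%) of 188, and 67 (22.4%) and 50 (21.5%) of 293. With AT2-like nuclei of the shared cluster alone, a setting chosen after seeing the data, 14 (10.2%) and 5 (8.76%) of 74 control peaks were higher and lower. For the CKO over control ratio, AT2-like nuclei gave -0.12 within 25 kb, 0.027 without peaks near other starts, 0.13 scaled to start peaks and -0.083 with the shared cluster alone. Transitional-like nuclei gave 0.18 scaled to start peaks, and AT1-like nuclei gave 0.084 without the deepest nuclei, -0.15 within 25 kb and 0.11 scaled to start peaks. The cause was not tested. The control AT1-like ratio of 0.05 ranged from -0.01 to 0.19 over its 11 alternatives, and the CKO ratio of 0.08 from 0.07 to 0.14 over 12. By locus 371 values stayed, 27 moved and 1 reversed, CKO Cav2 within 25 kb at -0.23. There the control Cav2 ratio of 0.17 also became -0.81 (-1.61 to -0.10), the value of its start peak alone. Without a mitochondrial limit or at Leiden resolution 0.4 the AT1-like and transitional-like classes merged, and separate clustering gave no control AT1-like class, so those settings were run on both classes together, where the control ratio of 0.003 ranged from -0.04 to 0.12 and the CKO ratio of 0.06 from 0.04 to 0.15. No paired analysis was possible because each genotype has 1 library and no result comes from a test. Few counts per peak limit what single regions can show.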
